A study of Mus musculus with 12 samples.

Results

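The 44 collagen genes of mouse back skin were examined, out of 18505 genes with a deposited expression value. Membership was set by name alone, as every gene whose symbol has the form Col, a number, the letter a and a number, and no measured value entered this rule. The choice of collagens as a subject, the other gene lists and the tests were made with earlier results of these data known. By the kind of assembly their chains form they were divided into 11 fibrillar genes, 10 basement membrane genes and 23 others. The samples were back skin from WT male BALB/c mice aged 5 to 6 weeks, taken on day 10, with 4 samples in each of 3 groups. The control group was painted with petroleum jelly, and no cover is described for it. The IMQ + NS group received a cream of imiquimod (IMQ), a Toll-like receptor agonist that brings on psoriasis-like inflammation, for 6 h a day, after which the skin was covered with saline (NS) under gauze and polyurethane film. The IMQ + BZLF group received the same cream for the same time and then Banzhilian formula (BZLF), a preparation of 9 plant and animal materials, under the same kind of cover. The study applied BZLF at 3 doses, and the dose of the sequenced samples is not given in the sources used here. All 3 groups were shaved and treated daily for 10 days, and the cover and the saline cannot be told apart from the cream in a comparison with the control group.

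Collagens are the main structural proteins of the dermis. Each chain carries stretches in which glycine recurs at regular steps, and such chains wind around each other into a rod. Fibrillar collagens pack into the cables that give skin its tensile strength, with collagen I the most abundant, collagen III beside it and collagen V inside the fibril where it sets its width. Network and anchoring collagens hold the epidermis, vessels and nerves on their basement membranes, and fibril-associated collagens coat the fibrils and link them to other matrix. In skin the fibrillar chains come mostly from fibroblasts, while collagens VII and XVII are also made by keratinocytes.

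The glycine repeat can be read in the genes themselves. In the GENCODE vM21 annotation of mm10, 47.0% of the 649 coding exons of the fibrillar genes are exactly 54 bases long, which is 6 repeats of 9 bases, against 4.56% of 548 in the basement membrane genes, 17.2% of 808 in the other collagen genes and 0.444% of 196998 in all other protein-coding genes. One such exon is shown for each of the 5 fibrillar genes on which the comparisons below turn, as an example of this unit. It was chosen as the first in-frame 54-base coding exon of the longest coding transcript in which a glycine codon opens every 9 bases. Each is a whole coding exon read 5′ to 3′ on the gene's strand, and capitals mark the 6 glycine codons.
Col1a1, exon 9 of 51, chr11:94940118-94940171, plus strand: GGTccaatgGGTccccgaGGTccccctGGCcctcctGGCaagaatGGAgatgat
Col1a2, exon 8 of 52, chr6:4515481-4515534, plus strand: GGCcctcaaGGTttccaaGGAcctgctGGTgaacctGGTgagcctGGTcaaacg
Col3a1, exon 6 of 51, chr1:45325360-45325413, plus strand: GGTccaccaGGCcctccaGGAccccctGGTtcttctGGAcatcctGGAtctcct
Col5a1, exon 16 of 66, chr2:27965597-27965650, plus strand: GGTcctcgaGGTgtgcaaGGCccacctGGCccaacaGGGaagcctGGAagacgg
Col5a2, exon 6 of 54, chr1:45434892-45434945, minus strand: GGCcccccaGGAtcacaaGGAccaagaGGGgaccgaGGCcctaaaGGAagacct
A glycine codon opens every block of 9 bases in all 5 exons because they were chosen for it. The 2 codons that followed it differed from block to block.

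Expression was given as FPKM, fragments divided by transcript length and by the mapped total, so levels of different genes can be compared. A gene passed the test when limma's moderated linear model on log2(FPKM + 0.1), fitted over 15288 genes for each pair of groups, gave a Benjamini-Hochberg adjusted p below 0.05. A differentially expressed gene (DEG) passed and also differed by more than 1 on the log2 scale. The p-values measure the spread between these samples. Fold changes are on the log2(FPKM + 0.1) scale, which understates the change of genes with a low FPKM. Of the 44 collagen genes, 37 had the mean FPKM of at least 0.1 needed for the test. The 7 others were Col2a1, Col4a6, Col9a1, Col9a2, Col10a1, Col19a1 and Col22a1, and their overall means lay between 0.0102 and 0.0725 FPKM. Of these, Col9a1, Col10a1 and Col19a1 were each listed at 0 in 3 samples.

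Control replicate 2 stood apart from the other controls. Krt35, a hair shaft keratin, was at 149 FPKM in it against 0.624 to 4.72 in the others, and Mki67, a proliferation marker, was at 23.7 against 2.10 to 3.55. Among the collagen genes, controls 1 and 2 lay above controls 3 and 4 in Col4a1, Col4a2, Col5a3, Col6a1, Col6a2, Col6a3 and Col15a1, among others, and the fat hormone gene Lep showed the same division, at 42.6 and 23.5 against 5.42 and 6.44 FPKM. Of the treated samples, IMQ + BZLF replicate 1 had the lowest level of its group in all 5 of the major fibrillar genes. Values without control replicate 2 or IMQ + BZLF replicate 1 are given beside several of the results. Of the cell type marker lists, those of fibroblasts, keratinocytes, adipocytes, skeletal muscle and vessels were all expressed, whereas the 5 cartilage markers were low. Of these, Matn1 and Matn3 did not exceed 0.0662 FPKM in any sample, Cnmd reached 1.05, Snorc 1.49 and Acan 6.51.

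The collagen genes together made up 2.81% to 3.71% of all FPKM in the control samples, 0.733% to 0.998% in IMQ + NS and 0.903% to 1.65% in IMQ + BZLF. Control samples did not overlap either treated group. Nearly all of this was the sum of Col1a1, Col1a2 and Col3a1, which held 89.9% to 95.8% of collagen FPKM in controls, 78.8% to 83.1% in IMQ + NS and 84.3% to 88.8% in IMQ + BZLF. The basement membrane genes, in contrast, summed to 202 to 374 FPKM in controls, 324 to 337 in IMQ + NS and 293 to 344 in IMQ + BZLF. Their sum in the treated samples lay inside the control range, so their share of collagen FPKM was higher, at 1.23% to 2.99% in controls, 6.58% to 8.93% in IMQ + NS and 3.99% to 6.60% in IMQ + BZLF. The other collagen genes summed to 305 to 642, 318 to 362 and 283 to 487 FPKM in the same order of groups, with overlap between all 3 groups. In whole skin, fewer cells of a type and less RNA per cell cannot be told apart.

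In the comparison of IMQ + NS with control samples, which sets psoriasis-like skin against skin painted with petroleum jelly, 12 collagen genes were lower, 8 were higher and 17 did not pass. Over all genes tested, 27.1% were lower and 29% higher, against 32.4% and 21.6% of the 37 collagen genes. The median log2 fold change was -0.11 over the collagen genes and 0.05 over all genes. The classes had different counts. Of 10 fibrillar genes tested, 5 were lower and 1 higher. Of 9 basement membrane genes, 3 were lower and 3 higher, and of 18 others, 4 were lower and 4 higher. There were 6 DEGs in each direction, where 11% of all genes were lower DEGs and 11.4% higher DEGs. The higher DEGs fell to 3 without IMQ + NS replicate 3, without control replicate 1 or with samples rescaled to equal sums, and to 1 with 1 added before the logarithm. The lower DEGs fell to 3 with 1 added or with a mean FPKM of at least 1.

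**Figure D1:**
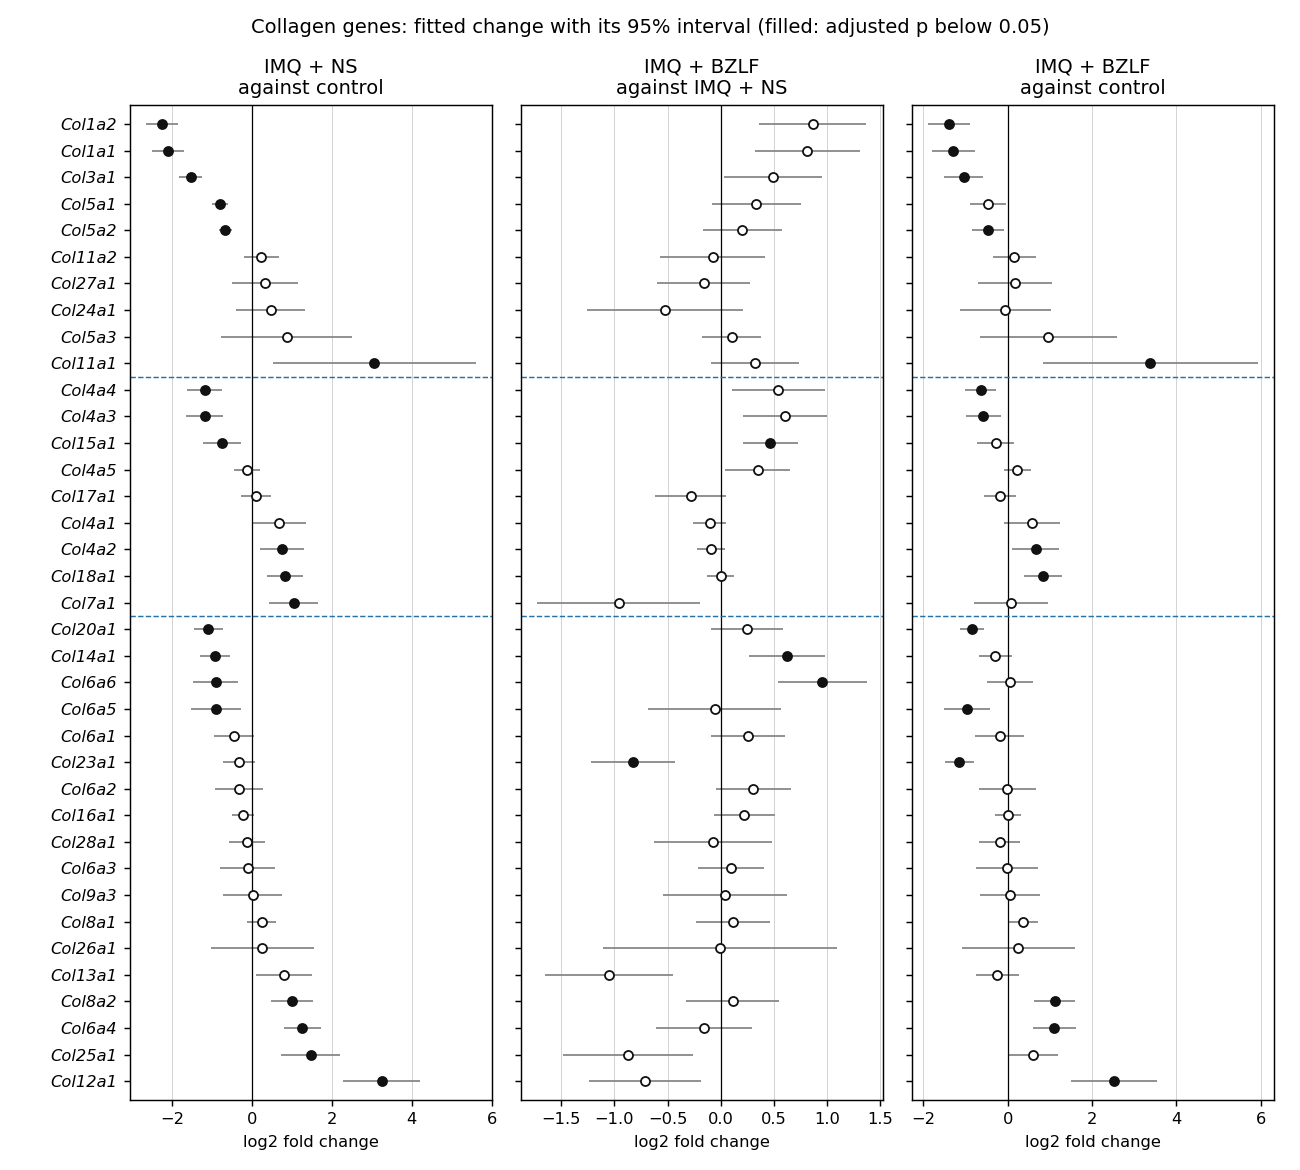
Log2 fold changes of the 37 collagen genes tested, on the log2(FPKM + 0.1) scale, in the 3 comparisons, with the x axis scaled separately in each panel. Points are limma estimates, bars are 95% intervals and filled points passed at an adjusted p below 0.05; the dashed lines divide fibrillar genes (top), basement membrane genes (middle) and others (bottom), and the 5 lowest fibrillar genes in the left panel all lie below 0.

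All 5 genes of collagens I, III and V that form the bulk of dermal fibrils (Col1a1, Col1a2, Col3a1, Col5a1 and Col5a2) were lower in IMQ + NS than in control samples. Col1a1, which encodes the chain present as a pair in the collagen I molecule, had 4046, 3546, 5226 and 5374 FPKM in control samples 1 to 4, 1251, 1185, 829 and 958 in IMQ + NS samples, and 1184, 2298, 2126 and 1937 in IMQ + BZLF samples. Every control value lay above every treated value, and the IMQ + BZLF samples lay above the IMQ + NS samples apart from replicate 1, which fell among them. In IMQ + NS samples Col1a1 was 4.30-fold lower than in control samples (log2 fold change -2.10, SE 0.18, adjusted p = 3.11e-05).

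Col1a2, the partner chain of collagen I, had 5073, 4458, 6301 and 6535 FPKM in controls, 1393, 1371, 918 and 1052 in IMQ + NS and 1384, 2651, 2547 and 2156 in IMQ + BZLF. The groups lay as they did for Col1a1, and Col1a2 was the collagen gene with the highest mean level, 2986 FPKM over the 12 samples. It was 4.74-fold lower in IMQ + NS than in control samples (adjusted p = 2.08e-05). Col3a1, whose chain alone builds collagen III, had 3704, 3218, 4187 and 4249 FPKM in controls, 1432, 1516, 1179 and 1168 in IMQ + NS and 1182, 2199, 2192 and 2045 in IMQ + BZLF. Its control samples again did not overlap the treated ones, and it was 2.90-fold lower in IMQ + NS (log2 fold change -1.54, SE 0.12, adjusted p = 2.68e-05).

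The collagen V chains, which nucleate fibrils, were expressed at a far lower level. Col5a1 had 82, 84.4, 77.1 and 74.9 FPKM in controls, 51.7, 48.0, 40.0 and 43.8 in IMQ + NS and 37.9, 62.3, 63.2 and 73.4 in IMQ + BZLF. Col5a2 had 107, 110, 115 and 112 FPKM in controls, 74.4, 71.3, 71.2 and 62.9 in IMQ + NS and 54.7, 88.0, 88.2 and 98.6 in IMQ + BZLF. For both genes every control value lay above every treated value, and the IMQ + BZLF samples spanned the whole IMQ + NS range because replicate 1 was the lowest of all 12. Col5a1 was 1.74-fold lower in IMQ + NS than in control samples (adjusted p = 1.58e-04) and Col5a2 1.59-fold lower (adjusted p = 1.01e-04), smaller changes than those of collagens I and III.

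**Figure D2:**
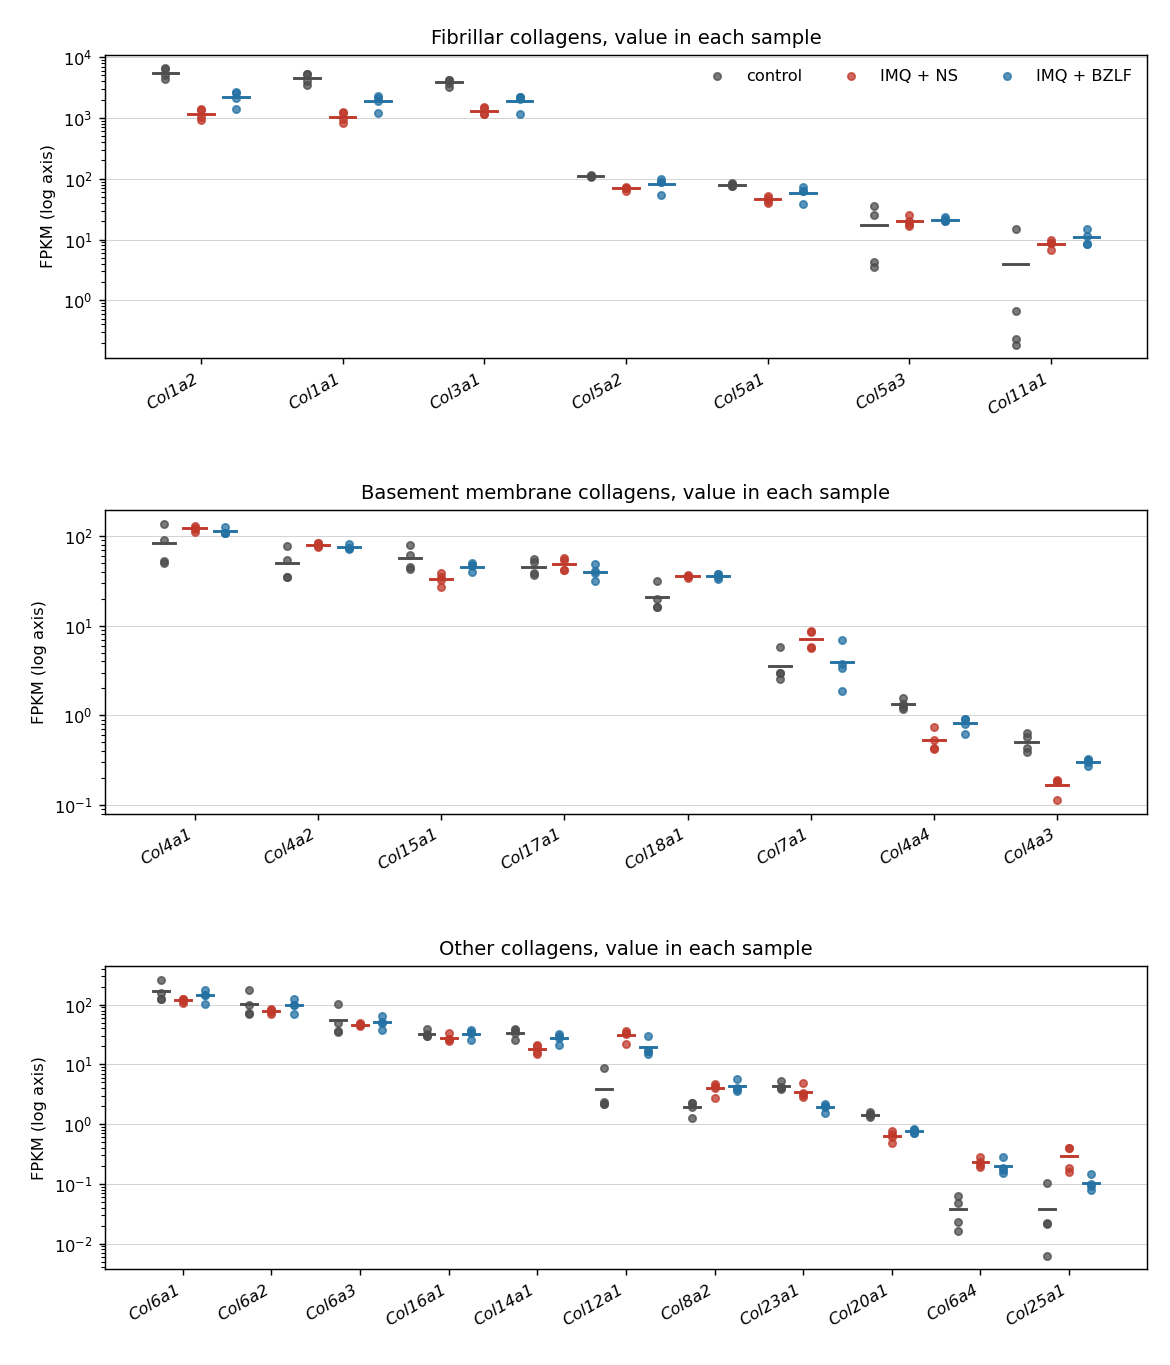
FPKM of collagen genes in each of the 12 samples on a log axis, by class, with 1 point per sample and a line at the mean of the 4 samples of a group. The control points of Col1a1, Col1a2 and Col3a1 lie between 3218 and 6535 FPKM and all treated points between 829 and 2651, while Col11a1 and Col12a1 have 1 control point, replicate 2, above the other 3.

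The minor fibrillar genes gave other values. Col11a1, a collagen XI chain best known from cartilage, had 0.656, 15, 0.229 and 0.187 FPKM in controls, 9.70, 8.60, 6.85 and 8.78 in IMQ + NS and 8.58, 8.42, 11.5 and 14.8 in IMQ + BZLF. Control replicate 2 was as high as the highest treated sample, and the other 3 controls lay under every treated sample. The gene was 8.36-fold higher in IMQ + NS than in control samples (log2 fold change 3.06, SE 1.11, adjusted p = 0.0427) and 10.4-fold higher in IMQ + BZLF (adjusted p = 0.0312). Without control replicate 2 the log2 fold changes of Col11a1 were 4.36 (adjusted p = 1.06e-05) and 4.68 (adjusted p = 1.24e-05), and with it left in, the call was lost in 11 of 19 alternative settings in IMQ + NS and in 8 of 19 in IMQ + BZLF samples. The cartilage list summed to 0.856, 1.13 and 1.53 FPKM in controls 3, 4 and 1, 6.80 in control 2 and 2.03 to 3.55 in treated samples, nearly all of control 2 being Acan, and Col2a1, the defining cartilage collagen, did not exceed 0.0761 FPKM. Of the 3 cartilage markers tested none passed in IMQ + NS against control, while in IMQ + BZLF against control samples Snorc was higher (log2 fold change 2.32, adjusted p = 0.0143) and Cnmd lower (-1.26, adjusted p = 0.0462). The part of this list in the result was not tested.

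Col5a3, a collagen V chain with a narrower distribution, had 25.4, 36.0, 4.20 and 3.50 FPKM in controls, 16.7 to 25.3 in IMQ + NS and 20 to 23.5 in IMQ + BZLF. Its controls lay on either side of all treated samples and it did not pass in either comparison with them (adjusted p = 0.33 and 0.279). Without control replicate 2, Col5a3 had a log2 fold change of 1.54 in IMQ + BZLF against control samples (adjusted p = 0.0487). The remaining 3 fibrillar genes tested, Col11a2, Col24a1 and Col27a1, had group means between 0.206 and 1.21 FPKM and did not pass in any comparison.

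Among the basement membrane genes, those of collagen IV did not all give the same direction. Collagen IV made of the Col4a1 and Col4a2 chains underlies nearly every epithelium and vessel, and the Col4a3, Col4a4 and Col4a5 chains form a more restricted network. Col4a1 had 91.8, 137, 49.6 and 53.4 FPKM in controls, 112, 129, 121 and 125 in IMQ + NS and 109, 109, 109 and 126 in IMQ + BZLF. Col4a2 had 54.7, 77.2, 34.7 and 34.6 FPKM in controls, 75.8, 83.4, 78.7 and 83.3 in IMQ + NS and 71.5, 73.6, 74.4 and 81.4 in IMQ + BZLF. In both genes control replicate 2 was as high as the treated samples and controls 3 and 4 were far under it. Col4a2 was 1.69-fold higher in IMQ + NS than in control samples (adjusted p = 0.0255) and 1.58-fold higher in IMQ + BZLF (adjusted p = 0.045), and the first call was lost in 6 and the second in 11 of 19 alternative settings. Without control replicate 2 its log2 fold changes were 0.99 (adjusted p = 6.53e-04) and 0.90 (adjusted p = 0.00119). Col4a1 did not pass (log2 fold change 0.68, SE 0.29, adjusted p = 0.0769), but without control replicate 2 it did, at 0.96 (adjusted p = 0.00268).

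Col4a3 and Col4a4, which lie head to head on chromosome 1, went the other way at much lower levels. Col4a3 had 0.639, 0.577, 0.390 and 0.431 FPKM in controls, 0.180, 0.189, 0.114 and 0.186 in IMQ + NS and 0.324, 0.316, 0.271 and 0.302 in IMQ + BZLF. Col4a4 had 1.55, 1.34, 1.24 and 1.17 FPKM in controls, 0.424, 0.748, 0.436 and 0.538 in IMQ + NS and 0.922, 0.922, 0.797 and 0.628 in IMQ + BZLF. In Col4a3 the 3 groups did not overlap at all, with IMQ + BZLF between the others, and in Col4a4 only the treated groups overlapped. In IMQ + NS samples Col4a3 was 2.26-fold lower (log2 fold change -1.18, SE 0.20, adjusted p = 0.00137) and Col4a4 2.27-fold lower (adjusted p = 9.05e-04) than in control samples. Col4a5, a further chain of that network, had group means of 2.24 to 2.87 FPKM and did not pass in any comparison.

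The transcripts of Col4a4 and Col4a3 start on opposite strands and their annotated gene starts leave 71 bases between them, which is shown because the data put both genes in the same direction. In RefSeq's GRCm38.p6 assembly this stretch, chr1:82586850-82586920, holds 2 CG dinucleotides, is 69.0% G or C and overlaps no annotated exon. It is written on the minus strand, 5′ to 3′, with CG in capitals.
Col4a4 to Col4a3 interval: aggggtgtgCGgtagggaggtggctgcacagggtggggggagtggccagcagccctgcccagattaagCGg
Col4a1 and Col4a2 are arranged in the same way on chromosome 8 and overlap there by a few bases, whereas 1308 bases separate Col4a6 and Col4a5 on chromosome X.

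The collagens that anchor the epidermis or lie just outside basement membranes differed from each other. Col7a1, the anchoring fibril collagen, had 2.52, 5.81, 2.95 and 2.99 FPKM in controls, 8.53, 5.71, 8.83 and 5.77 in IMQ + NS and 1.88, 3.37, 3.73 and 6.87 in IMQ + BZLF. It was 2.06-fold higher in IMQ + NS than in control samples (log2 fold change 1.04, SE 0.27, adjusted p = 0.0105), although control replicate 2 lay within the IMQ + NS range. Col18a1, the source of endostatin, had 19.9, 31.3, 16.1 and 16.2 FPKM in controls, 36.0, 34.3, 36.9 and 36.2 in IMQ + NS and 34.8, 37.4, 33.3 and 37.7 in IMQ + BZLF. Every treated sample lay above every control, and Col18a1 was 1.78-fold higher in both treated groups than in control samples (adjusted p = 0.00666 and 0.0079).

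Col15a1, its closest relative, did the reverse. It had 61.0, 80.7, 43.0 and 45.3 FPKM in controls, 32.7, 38.8, 27.1 and 34.8 in IMQ + NS and 39.6, 50.5, 46.1 and 47.1 in IMQ + BZLF. The IMQ + NS samples lay under all others, and Col15a1 was 1.68-fold lower in them than in control samples (adjusted p = 0.0132). Col17a1, the hemidesmosomal collagen of basal keratinocytes, had 38.9, 37.0, 51.8 and 55.5 FPKM in controls, 54.8, 42.1, 56.6 and 42.2 in IMQ + NS and 32, 49.5, 38.7 and 40.8 in IMQ + BZLF. The 3 groups overlapped, and Col17a1 did not pass in any comparison, with a 95% interval of the log2 fold change from -0.27 to 0.48 in IMQ + NS against control samples.

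Among the other collagens the largest difference was in Col12a1, a fibril-associated collagen of dense and remodelling connective tissue. It had 2.34, 8.71, 2.19 and 2.20 FPKM in controls, 33.0, 22.4, 35.7 and 34.0 in IMQ + NS and 14.8, 16.5, 16.5 and 30.4 in IMQ + BZLF. Every treated sample lay above every control, including control replicate 2. Col12a1 was 9.46-fold higher in IMQ + NS (log2 fold change 3.24, SE 0.42, adjusted p = 3.19e-04) and 5.77-fold higher in IMQ + BZLF (adjusted p = 0.00187) than in control samples.

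Col14a1, a fibril-associated collagen of similar design, had 38.9, 38.0, 34.1 and 25.8 FPKM in controls, 20.1, 21.2, 14.8 and 15.9 in IMQ + NS and 20.9, 28.2, 29.5 and 32.8 in IMQ + BZLF. Here the controls lay above all IMQ + NS samples and overlapped IMQ + BZLF. Col14a1 was 1.89-fold lower in IMQ + NS than in control samples (adjusted p = 0.0016). Col20a1, a further member of this subclass, had 1.45, 1.30, 1.59 and 1.44 FPKM in controls, 0.753, 0.676, 0.482 and 0.617 in IMQ + NS and 0.83, 0.722, 0.699 and 0.789 in IMQ + BZLF. Its controls lay above all treated samples, and it was 2.13-fold lower in IMQ + NS (adjusted p = 5.14e-04) and 1.80-fold lower in IMQ + BZLF (adjusted p = 9.46e-04). Col16a1 ranged from 25.1 to 39.1 FPKM over the 12 samples, with overlap between all groups, and did not pass.

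Collagen VI forms beaded filaments around cells. The levels of its 3 main chains overlapped between all groups. Col6a1 had 159, 264, 125 and 126 FPKM in controls, 107 to 126 in IMQ + NS and 101 to 180 in IMQ + BZLF. Col6a2 had 97.7, 174, 72.2 and 70.8 FPKM in controls, 68.7 to 85.2 in IMQ + NS and 69.7 to 125 in IMQ + BZLF, and Col6a3 had 49.2, 101, 36.5 and 34.7, 43.7 to 49.3 and 38.2 to 64.9 in the same order. Control replicate 2 was the highest of the 12 samples for all 3, the groups overlapped, and none of the 3 passed in any comparison. Without control replicate 2 the log2 fold change in IMQ + NS against control samples went from -0.45 to -0.21 in Col6a1 and from -0.11 to 0.23 in Col6a3, and neither passed.

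The 3 later-described chains, Col6a4, Col6a5 and Col6a6, which are neighbours on chromosome 9, did pass and in different directions. Col6a4 had 0.0160, 0.0480, 0.0621 and 0.0231 FPKM in controls, 0.283, 0.191, 0.229 and 0.210 in IMQ + NS and 0.181, 0.286, 0.172 and 0.150 in IMQ + BZLF. All treated samples lay above all controls, and its log2 fold changes were 1.26 (adjusted p = 9.55e-04) and 1.11 (adjusted p = 0.00369). Col6a5 had a mean of 0.763 ± 0.195 FPKM (SD, n = 4) in controls against 0.372 ± 0.153 in IMQ + NS and 0.343 ± 0.0943 in IMQ + BZLF, and it was 1.87-fold and 1.95-fold lower than in control samples (adjusted p = 0.0214 and 0.00911). The call of Col6a5 in IMQ + NS samples was lost in 4 of 18 alternative settings, namely without IMQ + NS replicate 1 or 4 and without control replicate 1 or 3. Col6a6 had 2.03 ± 0.616 FPKM in controls, 1.01 ± 0.216 in IMQ + NS and 2.06 ± 0.428 in IMQ + BZLF, and was 1.88-fold lower in IMQ + NS (adjusted p = 0.0123).

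The short-chain and membrane collagens were expressed at low levels. Col8a2, a network collagen of vessels and cornea, had 1.28, 2.29, 1.90 and 2.25 FPKM in controls, 4.07, 2.72, 4.35 and 4.75 in IMQ + NS and 3.81, 5.71, 3.62 and 3.99 in IMQ + BZLF. Every treated sample lay above every control, and it was 2.01-fold higher in IMQ + NS (adjusted p = 0.00548) and 2.17-fold higher in IMQ + BZLF (adjusted p = 0.00274). Col25a1, a transmembrane collagen, had 0.0215, 0.104, 0.00627 and 0.0221 FPKM in controls, 0.186, 0.160, 0.400 and 0.404 in IMQ + NS and 0.0980, 0.0798, 0.0933 and 0.144 in IMQ + BZLF. Its IMQ + NS samples lay above all others, and it was higher in them than in control samples (log2 fold change 1.47, SE 0.32, adjusted p = 0.00455). The remaining genes of this class, Col8a1, Col9a3, Col26a1 and Col28a1, had group means of 0.153 to 3.67 FPKM and did not pass in any comparison.

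Leaving out control replicate 2 raised the number of collagen genes higher in IMQ + NS than in control samples from 8 to 12, adding Col4a1, Col13a1, Col24a1 and Col27a1, while the 12 lower genes stayed as they were. Over all genes tested the share of higher genes went from 29% to 39.5% at the same time, against 21.6% and 32.4% of the collagen genes. Markers of other cell types moved in the same comparison with control replicate 2 left in, where over all genes 27.1% were lower and 29% higher. Of 10 fibroblast markers, 7 were lower and 3 did not pass, and their summed level was 2631 to 3655 FPKM in controls, 915 to 1174 in IMQ + NS and 863 to 1497 in IMQ + BZLF. Dcn, a proteoglycan gene of the same fibrils, had 1698, 1294, 1990 and 1804 FPKM in controls and 403 to 572 in IMQ + NS, but the fibroblast receptor gene Pdgfra had 14.9, 19.5, 16.0 and 13.7 against 14.0, 15.1, 17.4 and 14.6 (adjusted p = 0.683). All 6 skeletal muscle markers were lower, with sums of 3344 to 8197 against 630 to 1420 FPKM, as were 5 of 6 adipocyte markers, with sums of 4314 to 9515 against 1984 to 3034. All 7 hair shaft and all 5 hyperproliferative keratinocyte markers were higher, the former with sums of 10.2 to 197 against 4748 to 7070 FPKM and the latter with 193 to 639 against 2365 to 4232. Basal keratinocyte markers, whose cells also make Col7a1 and Col17a1, summed to 1311 to 1765 FPKM in controls and 3317 to 5403 in IMQ + NS, with 4 of 5 higher and 1 lower. Endothelial markers, whose cells make Col4a1, Col4a2 and Col18a1, summed to 72.1 to 95.4 against 59.1 to 72.2 FPKM, with 3 of 5 lower. The part of these cell types in the collagen results was not tested.

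Lesions covered with BZLF were set against lesions covered with saline to ask which genes changed with the formula. In it 3 collagen genes were higher, 1 was lower, 33 did not pass and 0 were DEGs by limma. At an unadjusted p under 0.05 there were 9 higher and 5 lower genes, of which 1 lower gene differed by more than 1 on the log2 scale. The share of all genes at this unadjusted threshold was not computed, so these counts cannot be set against it. The count of 0 DEGs became 3 higher without IMQ + BZLF replicate 1. It became 1 higher and 1 lower without IMQ + NS replicate 1. There was 1 higher without IMQ + NS replicate 2, with 0.01 added before the logarithm and with median ratio or quantile scaling, and 1 lower without IMQ + BZLF replicate 4 and with a replicate block. Over all genes tested 1.28% were higher and 5.17% lower, and 0.321% were higher and 2.2% lower DEGs. The median log2 fold change was 0.10 over the collagen genes, 0.49 over the 5 major fibrillar genes and -0.02 over all genes.

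The 3 higher genes came from different assemblies. Col6a6, with values of 1.26, 1.11, 0.765 and 0.921 FPKM in IMQ + NS and 1.6, 1.98, 2.02 and 2.63 in IMQ + BZLF, was 1.94-fold higher without overlap (log2 fold change 0.95, SE 0.18, adjusted p = 0.0184). Col15a1 was 1.38-fold higher, also without overlap (log2 fold change 0.46, SE 0.11, adjusted p = 0.0447). Col14a1 was 1.54-fold higher, with 1 IMQ + BZLF sample inside the IMQ + NS range, and its adjusted p rounded to 0.05 from below.

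The lower gene was Col23a1, a transmembrane collagen, which had 3.93, 5.27, 4.03 and 4.14 FPKM in controls, 2.89, 3.26, 4.86 and 3.03 in IMQ + NS and 1.52, 1.93, 2.0 and 2.20 in IMQ + BZLF. The IMQ + BZLF samples lay under all others. Col23a1 was 1.77-fold lower than in IMQ + NS (adjusted p = 0.0276) and 2.21-fold lower than in control samples (log2 fold change -1.14, SE 0.15, adjusted p = 4.71e-04). Of 19 alternative settings the call against IMQ + NS was lost in 5 for Col23a1, in 9 for Col15a1, in 14 for Col14a1 and in 2 for Col6a6.

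Col13a1, a further transmembrane collagen, had 0.556, 0.571, 0.290 and 0.556 FPKM in controls, 0.483, 0.941, 1.35 and 1.06 in IMQ + NS and 0.304, 0.457, 0.382 and 0.417 in IMQ + BZLF. The IMQ + BZLF samples lay under all IMQ + NS samples, but Col13a1 did not pass (log2 fold change -1.05, SE 0.27, adjusted p = 0.0509). It passed with a replicate block (adjusted p = 0.0374) and, at -1.31, without IMQ + NS replicate 1 (adjusted p = 0.00828). Against control samples its log2 fold change in IMQ + NS was 0.80, which did not pass either (adjusted p = 0.0527).

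The collagen I genes did not pass in this comparison. Col1a1 had a log2 fold change of 0.81 (95% interval 0.32 to 1.30, adjusted p = 0.0606), Col1a2 of 0.86 (0.36 to 1.37, adjusted p = 0.0534) and Col3a1 of 0.49 (0.03 to 0.95, adjusted p = 0.194). Without IMQ + BZLF replicate 1, Col1a1 was at 1.02 (adjusted p = 0.00979), Col1a2 at 1.07 (adjusted p = 0.0108) and Col3a1 at 0.70 (adjusted p = 0.0138). In that fit 10 of 37 collagen genes and 2.2% of all genes were higher, adding Col1a1, Col1a2, Col3a1, Col5a1, Col5a2, Col6a1 and Col6a2, whereas without IMQ + BZLF replicate 2, or without IMQ + NS replicate 4, the calls of Col6a6, Col14a1, Col15a1 and Col23a1 were all lost. The hair shaft list was highest of all samples in IMQ + BZLF replicate 1, at 9852 against 6478 to 7250 FPKM in the rest of its group, and the fibroblast list was lowest, at 863 against 1389 to 1497. Their part in the result was not tested.

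Of the genes that were higher in IMQ + NS than in control samples, Col12a1 had a log2 fold change of -0.71 under BZLF (SE 0.23, adjusted p = 0.109), Col7a1 of -0.96 (SE 0.34, adjusted p = 0.132) and Col25a1 of -0.87 (SE 0.27, adjusted p = 0.0961), and these did not pass. Without IMQ + BZLF replicate 4, which had the highest Col12a1 and Col7a1 of its group, Col12a1 was at -0.95 (adjusted p = 0.0157) and Col7a1 at -1.27 (adjusted p = 0.0329). For Col18a1 the interval of the log2 fold change was narrow, from -0.13 to 0.12, and for Col4a1 it ran from -0.26 to 0.05.

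Against control samples, IMQ + BZLF samples had 9 collagen genes lower, 6 higher and 22 that did not pass, in a comparison that shares its samples with the other 2. Over all genes tested 29.2% were lower and 23.8% higher, against 24.3% and 16.2% of the collagen genes. There were 4 collagen DEGs in each direction, where 10.1% of all genes were lower DEGs and 9.65% higher DEGs. The higher DEGs fell to 1 without IMQ + BZLF replicate 2, and to 2 without control replicate 1 or with 1 added before the logarithm. Col1a1 was 2.45-fold lower (log2 fold change -1.29, SE 0.22, adjusted p = 0.00173), Col1a2 2.61-fold lower (adjusted p = 0.0011) and Col3a1 2.07-fold lower (adjusted p = 0.00307). Col5a2 was 1.38-fold lower (adjusted p = 0.0434, lost in 8 of 19 alternative settings), and Col5a1 did not pass (log2 fold change -0.47, adjusted p = 0.0587). Col4a3 was 1.49-fold lower (adjusted p = 0.0276, lost in 5 of 18 alternative settings) and Col4a4 1.56-fold lower (adjusted p = 0.0105). Without control replicate 2 the number of higher genes went from 6 to 10, adding Col4a1, Col5a3, Col25a1 and Col27a1, and over all genes the share of higher genes went from 23.8% to 35.1%.

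The proportion of collagen chains was compared as a ratio within each sample, which does not depend on how samples were scaled. Of 7 pairs of genes, tested with a two-sided exact permutation test in which 4 against 4 samples cannot give a p below 0.0286, 3 had no overlap between IMQ + NS and control samples. The ratio of Col3a1 to Col1a1 was 0.915, 0.908, 0.801 and 0.791 in controls, 1.14, 1.28, 1.42 and 1.22 in IMQ + NS and 0.999, 0.957, 1.03 and 1.06 in IMQ + BZLF. Col3a1 thus had a lower FPKM than Col1a1 in every control and a higher one in every IMQ + NS sample, with the ratios of the IMQ + BZLF samples between. The difference of the mean log2 ratio was 0.57 for IMQ + NS against control (exact p = 0.0286, adjusted over the 7 pairs 0.0667), -0.32 for IMQ + BZLF against IMQ + NS (exact p = 0.0286, adjusted 0.1) and 0.25 for IMQ + BZLF against control (exact p = 0.0286, adjusted 0.05). No adjusted value lay under 0.05. With the exact p at its floor, the adjusted value was set by how many of the 7 pairs also reached it. Not passing therefore does not show that a ratio stayed the same.

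**Figure D3:**
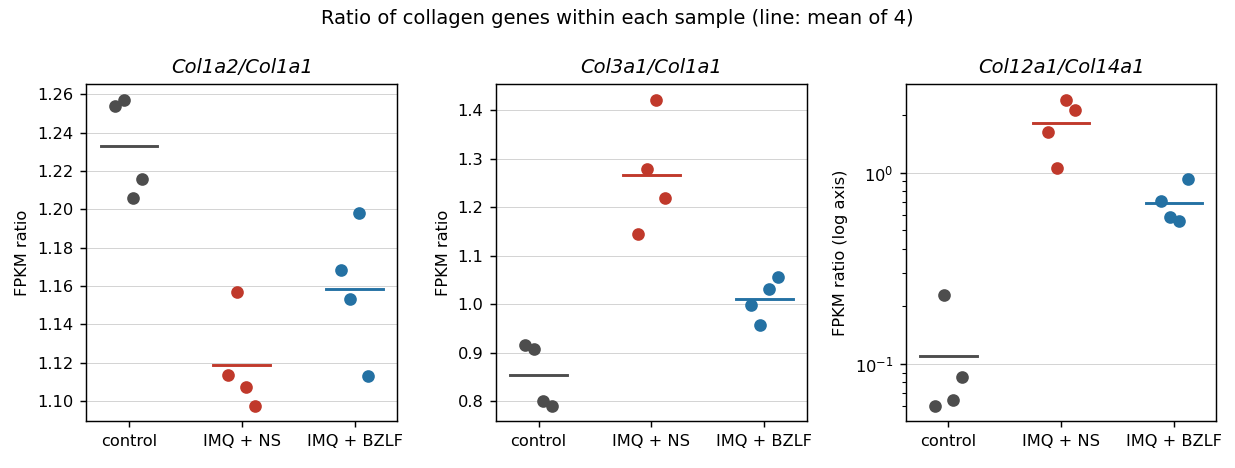
Ratio of FPKM within each sample for Col1a2 to Col1a1, Col3a1 to Col1a1 and Col12a1 to Col14a1 (log axis for the last), with 1 point per sample and a line at the mean of 4. For the ratio of Col3a1 to Col1a1 the controls lie at 0.791 to 0.915, the IMQ + BZLF samples at 0.957 to 1.06 and the IMQ + NS samples at 1.14 to 1.42.

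The ratio of Col12a1 to Col14a1, which sit on the same kind of fibril, was 0.0602, 0.229, 0.0643 and 0.0851 in controls, 1.64, 1.05, 2.41 and 2.13 in IMQ + NS and 0.709, 0.584, 0.560 and 0.928 in IMQ + BZLF. Again the 3 groups did not overlap and IMQ + BZLF lay between, with log2 differences of 4.21 for IMQ + NS against control and -1.34 for IMQ + BZLF against IMQ + NS (exact p = 0.0286 for each, adjusted 0.0667 and 0.1). The ratio of Col1a2 to Col1a1 moved little, from 1.21 to 1.26 in controls to 1.10 to 1.16 in IMQ + NS, a log2 difference of -0.14. For Col4a2 to Col4a1 it was 0.564 to 0.698 in controls, 0.645 to 0.674 in IMQ + NS and 0.645 to 0.682 in IMQ + BZLF, with overlap between all groups.

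A collagen chain has to be hydroxylated and folded, secreted, trimmed and crosslinked before it enters a fibril. Of 51 genes listed for these steps and for collagen receptors and breakdown, 49 were tested. In IMQ + NS against control samples 31 were lower, 6 higher and 12 did not pass, with a median log2 fold change of -0.61. These are 63.3% lower and 12.2% higher, where over all genes 27.1% were lower and 29% higher. Among 21 chaperones and hydroxylases 16 were lower and 2 higher. Serpinh1, the collagen chaperone HSP47, had 433, 516, 455 and 449 FPKM in controls, 156, 141, 144 and 148 in IMQ + NS and 146, 234, 206 and 239 in IMQ + BZLF. Its controls did not overlap the treated samples, and it was 3.14-fold lower in IMQ + NS (adjusted p = 7.78e-07). P4ha1, a catalytic subunit of prolyl 4-hydroxylase, was 2.18-fold lower (adjusted p = 7.38e-06) and Creb3l1, a transcription factor of collagen secretion, 3.66-fold lower (adjusted p = 1.24e-05).

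The 2 higher genes of that list were P4ha3, a further prolyl 4-hydroxylase subunit, and Plod2, the lysyl hydroxylase of telopeptides. P4ha3 had 0.0413 to 0.151 FPKM in controls, 0.348 to 1.21 in IMQ + NS and 0.105 to 0.621 in IMQ + BZLF, and its log2 fold change in IMQ + NS against control samples was 2.31 (adjusted p = 8.09e-04). Plod2 had 0.347, 1.75, 0.141 and 0.185 FPKM in controls and 0.941 to 1.63 in IMQ + NS, with control replicate 2 above all IMQ + NS samples, and its log2 fold change was 1.56 (SE 0.58, adjusted p = 0.0476). This call of Plod2 was lost in 12 of 19 alternative settings, while without control replicate 2 the log2 fold change was 2.20 (adjusted p = 1.36e-04).

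Of 12 genes tested for propeptide removal and crosslinking 9 were lower in IMQ + NS than in control samples and 3 did not pass. This is 75% lower, where over all genes 27.1% were lower and 29% higher. Pcolce2 and Pcolce, which speed the removal of the C-propeptide, were among the pathway genes with the largest differences. Pcolce2 had 168, 98.1, 264 and 241 FPKM in controls, 15.7, 23.2, 20.8 and 16.1 in IMQ + NS and 24.7, 46.6, 42.7 and 30.9 in IMQ + BZLF. Pcolce had 406, 346, 418 and 416 FPKM in controls, 82.8, 90.9, 70.3 and 79.2 in IMQ + NS and 115, 191, 168 and 136 in IMQ + BZLF. For both the 3 groups did not overlap and IMQ + BZLF lay between. Pcolce2 was 9.58-fold lower (adjusted p = 4.97e-05) and Pcolce 4.91-fold lower (adjusted p = 6.17e-07) in IMQ + NS than in control samples. Both were higher in IMQ + BZLF than in IMQ + NS samples, 1.87-fold for Pcolce2 (adjusted p = 0.0372, lost in 9 of 19 alternative settings) and 1.86-fold for Pcolce (adjusted p = 0.0116). Adamts2, the N-propeptidase, was lower in both treated groups, with means of 112 FPKM in controls, 34.3 in IMQ + NS and 39.3 in IMQ + BZLF. Against control samples it passed in IMQ + NS (adjusted p = 3.3e-04) and was 2.79-fold lower in IMQ + BZLF (adjusted p = 0.0019). Between the treated groups it did not pass (adjusted p = 0.604). Lox, which crosslinks fibrils, was 1.45-fold lower in IMQ + NS (adjusted p = 0.00754) and did not pass in the other comparisons.

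**Figure D4:**
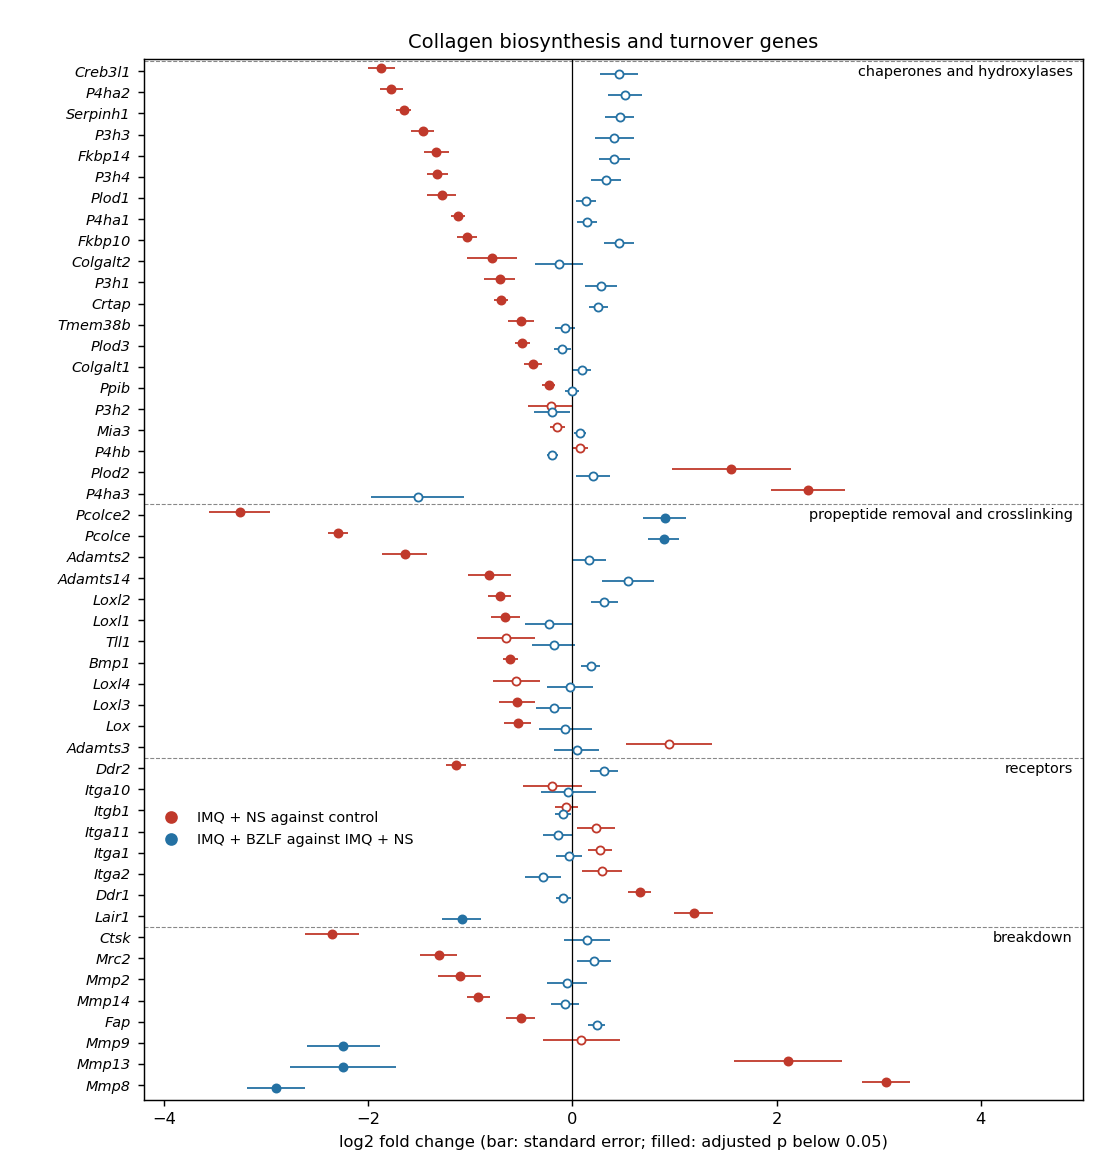
Log2 fold changes, on the log2(FPKM + 0.1) scale, of 49 genes of collagen folding, trimming, crosslinking, binding and breakdown in IMQ + NS against control samples and IMQ + BZLF against IMQ + NS samples. Bars are standard errors and filled points passed at an adjusted p below 0.05; in the first comparison 31 genes lie lower and 6 higher, and in the second 4 lower and 2 higher.

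Of 8 genes of collagen breakdown 5 were lower and 2 higher in IMQ + NS than in control samples. These are 62.5% and 25%, where over all genes 27.1% were lower and 29% higher. Ctsk, the collagenolytic cathepsin K, had 548 to 1216 FPKM in controls, 138 to 212 in IMQ + NS and 123 to 254 in IMQ + BZLF, and was 5.12-fold lower in IMQ + NS (adjusted p = 1.47e-04). The collagenase genes Mmp8, made chiefly by neutrophils, and Mmp13 were higher at low levels. Mmp8 had 0.112 to 0.25 FPKM in controls, 1.96 to 3.48 in IMQ + NS and 0.105 to 0.368 in IMQ + BZLF, with no overlap of IMQ + NS with the others, and it was 8.42-fold higher in IMQ + NS than in control samples (adjusted p = 2.05e-05) and 7.48-fold lower in IMQ + BZLF than in IMQ + NS (adjusted p = 0.00138). Mmp13 was 4.32-fold higher (adjusted p = 0.00893) and 4.76-fold lower (adjusted p = 0.0372, lost in 10 of 18 alternative settings) in the same comparisons. The gelatinase gene Mmp9 had 3.52 to 6.68 FPKM in controls, 3.32 to 11.1 in IMQ + NS and 0.770 to 1.41 in IMQ + BZLF, and it was 4.74-fold lower in IMQ + BZLF than in IMQ + NS (adjusted p = 0.00952) and 4.47-fold lower than in control samples (adjusted p = 2.63e-04).

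Of 8 receptor genes tested 1 was lower and 2 higher in IMQ + NS than in control samples. These are 12.5% and 25%, below the 27.1% lower and 29% higher over all genes. Lair1, a collagen receptor of leukocytes, had 0.489 to 0.877 FPKM in controls, 1.27 to 1.87 in IMQ + NS and 0.466 to 0.802 in IMQ + BZLF, and was 2.28-fold higher in IMQ + NS than in control samples (adjusted p = 9.71e-04) and 2.12-fold lower in IMQ + BZLF than in IMQ + NS (adjusted p = 0.0124). Over the 49 genes 4 were lower and 2 higher in IMQ + BZLF than in IMQ + NS, which is 8.16% and 4.08%, where over all genes 5.17% were lower and 1.28% higher. Without IMQ + BZLF replicate 1 the number higher was 16, where 2.2% of all genes were higher. Against control samples 27 were lower and 2 higher in IMQ + BZLF, where over all genes 29.2% were lower and 23.8% higher. The leukocyte list summed to 62.5 to 84.9 FPKM in controls, 58.2 to 96.6 in IMQ + NS and 32 to 49.9 in IMQ + BZLF. Cd68 was the largest member of this sum, with group means of 47.7, 34.2 and 26.9 FPKM in that order. Itgam had means of 13.1, 28.6 and 8.38 FPKM, and Ptprc of 8.82, 13.6 and 6.20. Between IMQ + NS and control, 2 of its 4 markers passed as higher, 1 passed as lower and 1 did not pass. What part this list had in the values of Mmp8, Mmp9 and Lair1 was not tested.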

How the data were processed

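The 12 samples of mouse back skin, 4 per group, were profiled by RNA-seq. The authors deposited FPKM values, normalized for transcript length and mapped fragments, not on a log scale and not pooled over replicates. Per the study's methods, RNA was extracted with mirVana, libraries were made with a TruSeq Stranded kit after ribosomal RNA removal, and Bowtie2 and eXpress gave the values, which the authors tested as counts with DESeq2. The submitters' processing notes instead name fastp, HISAT2, HTSeq, R 3.2.0 and mm10, and the labels name TRIzol and a VAHTS kit, so the aligner and the strand setting behind the values are not settled. FPKM summed to 444660 to 506622 per sample. When 15338 low values were divided by the smallest non-zero value of their gene, 21.4% came out as integers to a tolerance of 0.05. That smallest value need not stand for 1 read, so this share cannot decide whether counts could be recovered. Counts were not rebuilt, the depth is unknown and the precision comes from the 4 replicates. No column belonged to another series (0 columns).

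Groups were compared pair by pair with limma 3.58.1 in R 4.3.3, on log2(FPKM + 0.1) over the 15288 genes whose FPKM averaged at least 0.1, with a variance trend and Benjamini-Hochberg adjustment. Ratios were compared with two-sided exact permutation tests, and tables and figures were made with matplotlib 3.10.9 and pandas 2.3.3 in Python 3.11.15. The study's counts were not used here, so limma replaced its DESeq2 test. On simulated data with 200 of 15288 genes changed, the IMQ + BZLF against IMQ + NS setting recovered 76.0% of 100 genes changed by 1 and 94.0% of 100 changed by 2 on the log2 scale, with 8 false calls. The IMQ + NS against control setting recovered 59% and 88% with 11 false calls, and IMQ + BZLF against control 55% and 89% with 7. The simulated noise was independent between genes, no simulated sample stood apart, and fewer genes were changed than passed in the real comparisons.

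The collagen genes, the pathway and marker lists and the tests were chosen with earlier results of these data known. Values in every sample are given for collagen genes averaging at least 10 FPKM and for collagen DEGs, with some ranges for chains whose groups overlapped. The remaining collagen genes are named to account for every member. Col13a1 is given in full since its IMQ + BZLF and IMQ + NS samples did not overlap, a choice made after its values were seen. Of the pathway lists, the DEGs with the largest change, up to 4 per direction and comparison, and Serpinh1, P4ha1, Lox and Mmp9 are named; Dcn, Pdgfra, Krt35, Mki67, Lep and the cartilage genes were chosen among the markers after their values were seen. Exons come from GENCODE vM21 (mm10) and the interval between Col4a4 and Col4a3 from RefSeq GRCm38.p6. The numbers 1 to 4 did not pair the samples: correlations of same-numbered deviations ran from -0.152 to 0.26. The alternatives were another constant (0.01 or 1), no filter or a mean of at least 1 FPKM, 3 other scalings, 1 fit of all 12 samples, no variance trend, robust moderation, a replicate block and each replicate left out.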

Additional observations from a re-analysis of the deposited data

Results flagged for a closer look

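In groups of 4, a highest or lowest sample was singled out when its gap to the nearest other sample was a larger share of the range of the group than Dixon's 95% critical value, both taken on the log2(FPKM + 0.1) scale, or as log2 for summed levels. Of 93 groups of collagen values examined 6 met this, where chance gives about 1 in 20. Of these, 3 were in Col12a1: control replicate 2 was the highest control at 8.71 FPKM against 2.34 in the next, IMQ + NS replicate 2 was the lowest of its group at 22.4 FPKM against 33.0, and IMQ + BZLF replicate 4 was the highest of its group at 30.4 FPKM against 16.5.

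In Col3a1, IMQ + BZLF replicate 1 was the lowest of its group at 1182 FPKM, with the next at 2045. In Col4a1, IMQ + BZLF replicate 4 was the highest of its group at 126 FPKM, with the others at 109. In Col4a3, IMQ + NS replicate 3 was the lowest of its group at 0.114 FPKM, with the next at 0.180.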

How the results depend on the processing

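No collagen gene that passed in a comparison changed direction there under any alternative run. In IMQ + BZLF against IMQ + NS samples, where 3 collagen genes were higher and 1 lower, median ratio scaling and quantile normalization each gave 5 higher (adding Col1a1 and Col1a2), no filter on low values gave 0 lower, and leaving out 1 replicate gave 0 to 10 higher and 0 to 3 lower. In IMQ + BZLF against control samples, with 9 lower and 6 higher, a mean FPKM of at least 1 left 5 lower, since fewer genes were tested, and leaving out 1 replicate gave 7 to 10 lower and 4 to 10 higher. In IMQ + NS against control samples, with 12 lower and 8 higher, median ratio scaling gave 14 lower, adding Col6a1 and Col16a1. Samples rescaled to equal sums gave 13 lower, adding Col16a1, and 6 higher. Leaving out 1 replicate there gave 11 to 13 lower and 6 to 12 higher. The cause of the changes between scalings was not tested.

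The replicate number as a block gave 12 lower and 8 higher in IMQ + NS against control, 2 lower and 2 higher in IMQ + BZLF against IMQ + NS, and 8 lower and 5 higher in IMQ + BZLF against control samples. The labels give replicates only a number in common, so the blocked counts do not settle whether samples were paired.

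Scaling moved the balance of calls over all genes. The share of calls that were higher went from 51.7% to 38.7% in IMQ + NS against control and from 44.9% to 34.8% in IMQ + BZLF against control with samples rescaled to equal sums, which put the median of all genes at -0.12 (log2) in the latter, and from 19.8% to 33.8% in IMQ + BZLF against IMQ + NS with median ratio scaling. The number of mapped fragments per library is not known here, and values under about 0.1 FPKM carry the least weight.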
